A study of Mus musculus with 12 samples.

Results

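The Pramel family of mouse genes was examined in bulk RNA-seq of embryonic stem cells, the pluripotent cells grown from the early embryo. Its members were all genes whose name in the tables starts with Pramel, which gave 58 of 41079 gene IDs. The study set cells labelled Bod1L KO, whose titles also name tamoxifen, beside cells labelled WT, and each genotype was either given etoposide or left without treatment. Etoposide is a topoisomerase II poison that leaves DNA with double-strand breaks. The groups were KO with etoposide, WT with etoposide, untreated KO and untreated WT, with 3 libraries each, labelled as biological replicates with no word on separate cultures. P values therefore measure the spread between these libraries. Tamoxifen is named for the KO libraries alone, so genotype and tamoxifen cannot be told apart, and the labels give neither the allele, nor what was deleted, nor whether the KO cells were 1 clone.

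Bod1l, the targeted gene, stood at 12.4 ± 0.602 TPM in treated KO, 48.7 ± 2.31 in treated WT, 11.6 ± 0.415 in untreated KO and 49.3 ± 1.12 in untreated WT (transcript abundance per gene, scaled to a fixed total in each library; mean ± SD, n = 3 libraries). Depth was 5.23 to 7.76 gigabases of aligned sequence per library. All 9 pluripotency markers that were looked up, Pou5f1, Sox2 and Nanog among them, had a mean of at least 1 TPM, and their summed level was 7227 to 8290 TPM in every library.

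Pramel genes are relatives of human PRAME, a protein first found as a tumour antigen, and they encode proteins built from leucine-rich repeats. Human PRAME serves as a substrate receptor of a ubiquitin ligase built on the scaffold CUL2. In mouse, Pramel7 is active in the early embryo and in naive stem cells, where it lowers the protein UHRF1, the partner of the maintenance DNA methyltransferase DNMT1. Pramel6 and Pramel7 also lie downstream of the cytokine LIF and its transcription factor STAT3 in mouse stem cells. Other members are best known from the germ line, and Pramel13, formerly Pramef12, is needed for sperm production in mice.

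Of the 58 members, 9 had a mean of at least 1 TPM over the 12 libraries, 18 lay under 1 TPM but above 0 in at least 1 library, and 31 were listed at 0 in all 12. The members closest to the threshold from above were Pramel1, with a mean of 1.70 TPM, and Pramel18, with 1.83. The closest from below were Pramel16, whose mean rounds to 1.00 but lies just under it, and Pramel31, with 0.989. TPM is a level per transcript length, so members can be ranked by it. Pramel13 and Pramel12 held the top places in every library. Pramel13 alone made up 45.4 ± 1.49% of the family's summed TPM in untreated KO and 55.2 ± 0.546% in untreated WT (SD, n = 3).

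The members lay in 7 groups along 5 chromosomes when genes whose starts were within 1 Mb were joined (GRCm39, the build of the files). Pramel7 and Pramel6 sat next to each other on chr2:87319432-87341209. A small cluster of 3 genes, Pramel17, Pramel18 and Pramel19, covered chr4:101692166-101800380. A large cluster of 20 genes on chr4:143120889-144135037 held the other 5 members of at least 1 TPM, which were Pramel1, Pramel12, Pramel14, Pramel30 and Pramel13, and also Pramel16 and Pramel31. The 26 genes on chr5:93629686-95952089 were listed at or near 0, with 24 at 0 in all 12 libraries. Only 6 of them could be matched to transcripts for a count of short stretches shared with other genes. In these 6 a median of 88.95% of stretches was shared, with a range of 60.6% to 100%. How reads were divided among such copies is not described, so these zeros do not show that the genes are silent. The 5 genes on the X chromosome never passed 0.182 TPM in a library, and the remaining 2 members stood alone on chromosomes 12 and 4.

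Promoter windows of 250 bases upstream of the annotated start were found in RefSeq, on the build GRCm38.p6, for 7 of the 9 members of at least 1 TPM and for Pramel16 and Pramel31. They are shown for genes that moved in opposite directions between the genotypes although their windows are alike, and for genes that stand apart from them. In a global alignment the windows of Pramel14 and Pramel30 were 97.6% identical, that of Pramel7 matched them at 81.2% and 80.4%, and the other 33 pairs of these 9 windows matched at 45.2% to 59.2%. In the following lines the capitals of Pramel7 (chr2:87492419-87492668, minus strand) and Pramel30 (chr4:144329999-144330248, plus strand) mark bases that do not match Pramel14 (chr4:143994370-143994619, minus strand), 47 in Pramel7 and 6 in Pramel30.
Pramel7: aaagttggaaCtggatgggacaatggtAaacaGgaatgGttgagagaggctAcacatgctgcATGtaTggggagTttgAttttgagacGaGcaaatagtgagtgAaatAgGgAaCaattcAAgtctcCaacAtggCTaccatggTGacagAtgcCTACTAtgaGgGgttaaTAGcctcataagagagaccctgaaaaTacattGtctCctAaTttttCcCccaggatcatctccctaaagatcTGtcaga
Pramel14: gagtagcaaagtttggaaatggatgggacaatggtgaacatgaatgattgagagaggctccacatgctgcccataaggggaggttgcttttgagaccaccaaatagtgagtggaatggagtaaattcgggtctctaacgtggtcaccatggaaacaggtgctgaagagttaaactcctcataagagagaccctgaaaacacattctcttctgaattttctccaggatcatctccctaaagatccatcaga
Pramel30: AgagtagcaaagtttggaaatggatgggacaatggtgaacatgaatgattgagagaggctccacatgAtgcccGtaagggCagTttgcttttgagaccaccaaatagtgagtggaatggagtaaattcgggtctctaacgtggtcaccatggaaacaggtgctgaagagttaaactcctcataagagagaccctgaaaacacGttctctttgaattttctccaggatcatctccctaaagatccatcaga
Promoter motifs were searched on both strands, and none of these 3 windows held one, which says only that the letters are not in this stretch. The TATA box was searched as TATAAA and found in 12.4% of all 32851 RefSeq windows of the same length. The CCAAT box was searched by its own letters and found in 33.8%. The GC box was searched as GGGCGG and found in 32.7%, and the STAT site was searched as TTCNNNGAA and found in 7.0%. The windows of Pramel6 (chr2:87506315-87506564, plus strand) and Pramel1 (chr4:143394191-143394440, plus strand) follow, with matches to these motifs, read on either strand, in capitals.
Pramel6: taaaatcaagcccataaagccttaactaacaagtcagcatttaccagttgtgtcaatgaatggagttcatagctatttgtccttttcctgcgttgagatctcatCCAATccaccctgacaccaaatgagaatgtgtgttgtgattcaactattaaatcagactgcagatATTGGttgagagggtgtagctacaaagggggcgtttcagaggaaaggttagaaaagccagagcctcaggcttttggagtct
Pramel1: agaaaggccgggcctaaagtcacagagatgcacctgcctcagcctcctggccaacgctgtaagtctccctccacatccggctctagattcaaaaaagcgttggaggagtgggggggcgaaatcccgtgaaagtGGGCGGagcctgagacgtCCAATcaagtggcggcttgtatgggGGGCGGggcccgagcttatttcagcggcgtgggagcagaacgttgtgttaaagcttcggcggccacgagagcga
Pramel6 had CCAAT at 2 places, 146 and 81 bases before the start, and Pramel1 had 2 GC boxes and 1 CCAAT. Pramel1 also had 18 CG pairs, against 1 in Pramel7, 2 in Pramel6 and Pramel14, 4 in Pramel30 and 6 in Pramel13. The median over all windows was 6. A match to a motif is a description of the sequence and not a binding site.

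Between the genotypes the family split in both conditions. Pramel7, Pramel6, Pramel18 and Pramel19 rose in KO cells, while Pramel13, Pramel12, Pramel14 and Pramel30 fell, and Pramel1 did not pass the test. Changes are given as differences of log2(TPM + 1) ± SE from limma, fitted over the 14107 genes of at least 1 TPM, with Benjamini-Hochberg adjusted p over all of them and a call at an adjusted p under 0.05. The scale understates changes of genes near or under 1 TPM. In untreated cells 4 of 9 members were called higher, against 28.1% of all tested genes, and 4 of 9 lower, against 21.5%. With etoposide the counts were again 4 of 9 higher, against 22.5%, and 4 of 9 lower, against 21.7%. Pramel18 and Pramel19 reached 1 TPM only through the KO libraries and so had to differ, which leaves 2 of the other 7 higher and 4 lower in each comparison. The 2 comparisons share no library, but they share the estimate of each gene's spread, and tamoxifen is named for KO in both.

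**Figure D1:**
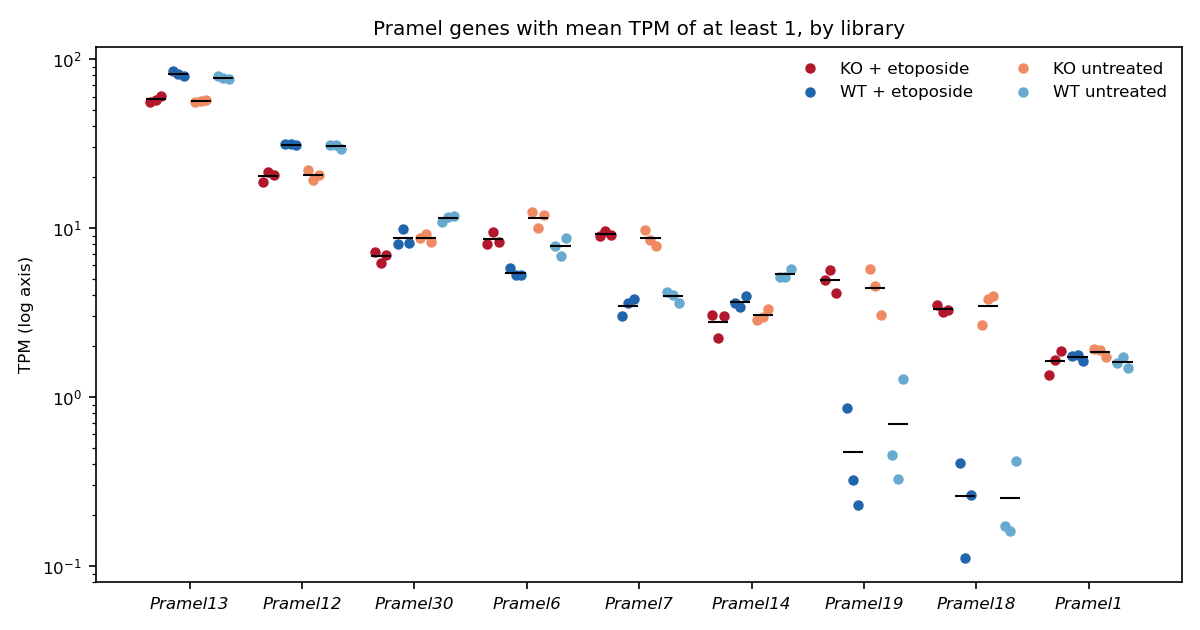
TPM of the 9 Pramel genes with a mean of at least 1 TPM, on a log axis, in each of the 12 libraries; points are libraries, black bars are group means. Pramel13 and Pramel12 sit at the top and lie lower in both KO groups than in both WT groups, while Pramel7, Pramel18 and Pramel19 lie higher in both.

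Pramel7, the member with the best described part in naive stem cells, lies at chr2:87319432-87322762 (GRCm39). It stood at 9.70, 8.48 and 7.83 TPM in untreated KO, against 4.21, 4.02 and 3.61 TPM in untreated WT. Under etoposide its level was 8.97, 9.62 and 9.06 TPM in KO, against 3.01, 3.61 and 3.77 TPM in WT. Each KO library was above every WT library, and the ratio of means was 2.196 without and 2.66 with etoposide. The difference was 0.96 ± 0.09 in untreated cells (adjusted p = 4.48e-06) and 1.20 ± 0.09 with etoposide (adjusted p = 9.47e-07). In bulk RNA, more cells of a type that express a gene and more RNA per cell cannot be told apart, here and in what follows.

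Its neighbour Pramel6, at chr2:87336909-87341209 (GRCm39), moved the same way. It stood at 12.4, 10.0 and 11.9 TPM in untreated KO, against 7.87, 6.86 and 8.74 TPM in untreated WT. After treatment it stood at 8.04, 9.46 and 8.30 TPM in KO, against 5.84, 5.24 and 5.24 TPM in WT. The groups did not overlap in either condition, and the differences were 0.49 ± 0.10 (adjusted p = 0.00134) and 0.57 ± 0.10 (adjusted p = 5.65e-04). Pramel6 was above Pramel7 in each of the 6 WT libraries and in each untreated KO library, and below it in the 3 treated KO libraries.

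The largest ratios among these 9 were in the small chromosome 4 cluster. Pramel18 (chr4:101766318-101769105, GRCm39) stood at 2.67, 3.79 and 3.96 TPM in untreated KO, against 0.173, 0.161 and 0.420 TPM in untreated WT. In the etoposide groups it measured 3.49, 3.17 and 3.29 TPM in KO, against 0.406, 0.111 and 0.261 TPM in WT. Every KO library was above every WT library, with a difference of 1.83 ± 0.14 in untreated cells (adjusted p = 8.60e-07) and 1.78 ± 0.14 with etoposide (adjusted p = 1.38e-06). The WT values rest on thin data, since read depth over the gene was 0.406 to 1.04 in untreated WT, against 6.31 to 8.31 in untreated KO. Pramel18 passed the filter only through the KO libraries, so its calls add no support.

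Pramel19, at chr4:101797604-101800380 (GRCm39), followed the same pattern. It stood at 5.72, 4.53 and 3.05 TPM in untreated KO, against 0.454, 0.327 and 1.28 TPM in untreated WT. With etoposide it stood at 4.96, 5.61 and 4.10 TPM in KO, against 0.860, 0.323 and 0.229 TPM in WT. The groups did not overlap, and the differences were 1.70 ± 0.24 (adjusted p = 9.99e-05) and 2.02 ± 0.24 (adjusted p = 3.14e-05). The lowest untreated KO library and the highest untreated WT library, both replicate 3, were nearest each other. Pramel19 too passed the filter only through the KO libraries, so its calls add no support.

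Markers of the 2-cell-like state, a rare state of stem cell cultures that resembles the embryo after its first division, moved with these rises. Of the 20 names of this list that reached 1 TPM, 16 had a mean under 1 TPM in at least 1 WT group, where the KO libraries helped or carried them past the filter, and their calls are not counted here. The other 4 were Tcstv2b, Eif1ad7, Eif1ad8 and Eif4a3l1, and 4 of 4 were called higher in both comparisons, against 28.1% of all tested genes in untreated cells and 22.5% with etoposide. The summed level of the whole list was 156 to 181 TPM in untreated KO, against 18.0 to 19.1 TPM in untreated WT, and 172 to 196 TPM in treated KO, against 18.2 to 20.7 TPM in treated WT. None of the 23 listed names in the tables was at 0 in all libraries. Zscan4c, a zinc finger gene that defines the state, averaged 5.31 ± 0.338 TPM in untreated KO and 0.651 ± 0.0672 TPM in untreated WT and was among the 16. Eif1ad7, a relative of a translation initiation factor, averaged 13.9 ± 1.28 TPM in untreated KO and 1.48 ± 0.284 TPM in untreated WT, a difference of 2.59 ± 0.10 (adjusted p = 3.41e-09). Eif1ad8, of the same kind, averaged 11.9 ± 1.03 TPM in untreated KO and 1.24 ± 0.314 TPM in untreated WT, a difference of 2.53 ± 0.12 (adjusted p = 1.37e-08). The part of these cells in the rises of Pramel members was not tested.

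Pramel13, the most abundant member, lies at chr4:144118244-144135037 (GRCm39) and fell in KO. It stood at 56.0, 56.5 and 57.5 TPM in untreated KO, against 78.9, 76.8 and 76.6 TPM in untreated WT. In treated cells it was at 55.8, 57.5 and 60.8 TPM in KO, against 84.6, 81.6 and 79.2 TPM in WT. The groups were far apart relative to their spread, with ratios of means of 0.732 and 0.710. The differences were -0.44 ± 0.04 in untreated cells (adjusted p = 1.23e-06) and -0.49 ± 0.04 with etoposide (adjusted p = 7.18e-07). An antisense transcript is annotated inside Pramel13 in GENCODE M21, and whether the authors' quantification used strand is not given in the sources used here, so its reads may be part of these values.

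Pramel12 (chr4:143137457-143147661, GRCm39), near the other end of the large cluster, also fell in KO. It stood at 22.1, 19.1 and 20.5 TPM in untreated KO, against 31.1, 30.9 and 29.4 TPM in untreated WT. Under etoposide its level was 18.7, 21.6 and 20.5 TPM in KO, against 31.3, 31.4 and 30.9 TPM in WT. No KO library reached the lowest WT library, and the differences were -0.55 ± 0.06 (adjusted p = 1.31e-05) and -0.60 ± 0.06 (adjusted p = 7.32e-06). Pramel12 and Pramel13 shared no stretch of 50 bases with each other or with any other gene of GENCODE M21.

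Pramel30 and Pramel14 are the close pair, whose promoter windows above are nearly identical, and their transcripts also shared 73.8% and 73.5% of their 50-base stretches, so reads could be divided between them in more than 1 way. Pramel30 (chr4:144056819-144060035, GRCm39) stood at 8.72, 9.22 and 8.32 TPM in untreated KO, against 10.8, 11.6 and 11.8 TPM in untreated WT. After treatment it stood at 7.26, 6.17 and 6.95 TPM in KO, against 8.04, 9.83 and 8.18 TPM in WT. Every KO library was below every WT library in both conditions, and the difference was -0.35 ± 0.08 in untreated cells (adjusted p = 0.00428) and -0.31 ± 0.08 with etoposide (adjusted p = 0.00930).

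Pramel14 (chr4:143717697-143720939, GRCm39) stood at 2.84, 2.96 and 3.31 TPM in untreated KO, against 5.15, 5.16 and 5.70 TPM in untreated WT. In the etoposide groups it measured 3.06, 2.24 and 3.03 TPM in KO, against 3.57, 3.43 and 3.93 TPM in WT. The untreated groups were well apart, with a difference of -0.65 ± 0.10 (adjusted p = 2.30e-04), and the treated groups were close, with -0.31 ± 0.10 (adjusted p = 0.0287). That second call was lost without treated KO replicate 2 (-0.20, adjusted p = 0.118), treated WT replicate 1 (-0.32, adjusted p = 0.0565) or treated WT replicate 3 (-0.26, adjusted p = 0.0970). Added together, so that the division of reads between them plays no part, the pair stood at 11.6, 12.2 and 11.6 TPM in untreated KO, against 15.9, 16.7 and 17.5 TPM in untreated WT. The sum differed by -0.47 ± 0.07 in untreated KO (adjusted p = 2.64e-04) and -0.34 ± 0.07 in treated KO (adjusted p = 0.00317). Pramel7, with a window 81.2% identical to that of Pramel14, rose in the same cells.

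Pramel18 and Pramel19 shared 45.7% and 47.3% of their 50-base stretches with other genes, mostly with each other. Their sum stood at 8.39, 8.32 and 7.01 TPM in untreated KO, against 0.627, 0.488 and 1.70 TPM in untreated WT. With etoposide it stood at 8.45, 8.78 and 7.40 TPM in KO, against 1.27, 0.435 and 0.490 TPM in WT. The differences of the sum were 2.25 ± 0.22 (adjusted p = 4.89e-06) and 2.44 ± 0.22 (adjusted p = 3.22e-06). Like each of the 2 genes, the sum reached 1 TPM through the KO libraries and so had to differ, and these p values add no support.

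Pramel1, a germ line member at chr4:143120889-143126730 (GRCm39), did not pass the test between genotypes. It stood at 1.92, 1.90 and 1.73 TPM in untreated KO, against 1.60, 1.73 and 1.48 TPM in untreated WT. In treated cells it was at 1.36, 1.65 and 1.87 TPM in KO, against 1.75, 1.77 and 1.64 TPM in WT. The groups overlapped in both conditions, by a narrow margin in untreated cells, and the differences were 0.13 ± 0.10 (adjusted p = 0.2998) and -0.05 ± 0.10 (adjusted p = 0.696). Pramel1 lies beside Pramel12 at the start of the large cluster, and its window had the most CG pairs of the 9 windows found.

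**Figure D2:**
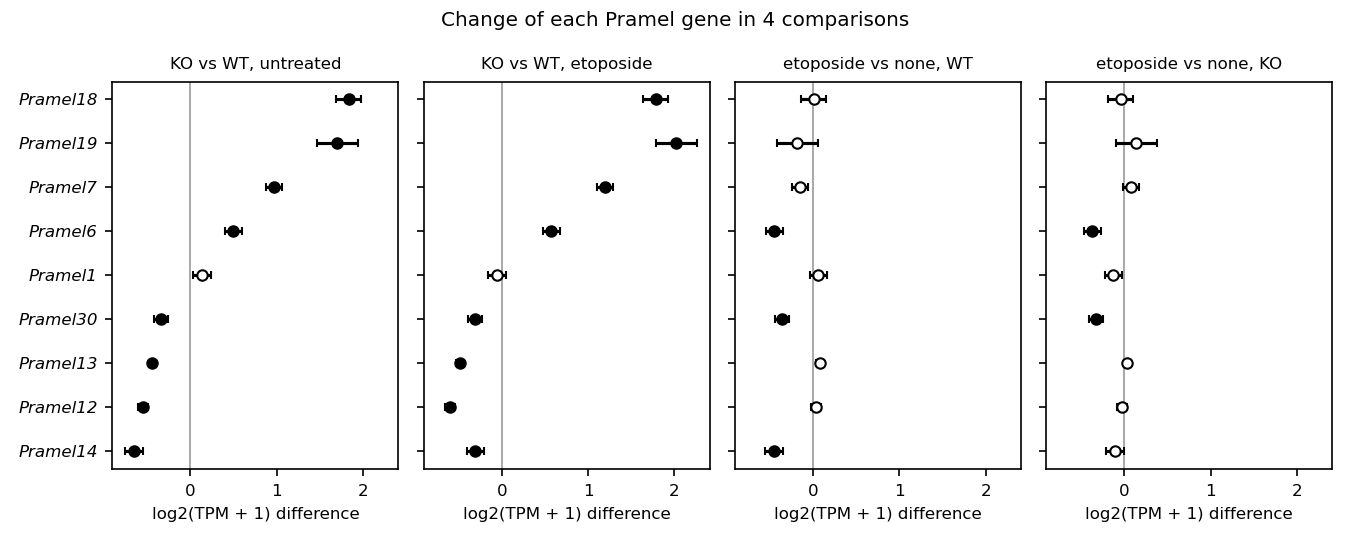
Differences of log2(TPM + 1) for the 9 Pramel genes in 4 comparisons; points are estimates, bars are SE, filled points have an adjusted p under 0.05 and open points do not. The first and the second panel show the same 4 genes above 0 and the same 4 genes below 0, and no filled point lies above 0 in the etoposide panels.

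Of the 18 members under 1 TPM that were above 0 somewhere, some were higher in KO and none had its KO libraries all below its WT libraries. A member at 0 in any WT library could not have all KO libraries below, so that outcome was open to few members. Only Pramel15, Pramel16 and Pramel31 were above 0 in every untreated WT library. In treated WT this also held for Pramel20, Pramel5 and Pramel3e. In untreated cells 8 of 18 had every KO library above every WT library, against 8.3% of the 13197 genes in the same range, and 0 of 18 had every KO library below, against 4.17%. The 8 were Pramel17, Pramel20, Pramel21, Pramel24, Pramel11, Pramel16, Pramel31 and Pramel3a. Pramel3a stood at 0.0230, 0.0753 and 0.168 TPM in untreated KO, against 0 in untreated WT. It was not called in limma with no filter on low values (adjusted p = 0.0615). Its mean with etoposide was 0.00817 TPM in KO and 0.0300 TPM in WT. Of the 50-base stretches of Pramel11, 31.4% were shared with Pramel21, so reads could be divided between them in more than 1 way. With etoposide the counts were 5 of 18, against 7.4%, and 0 of 18, against 5.37%. Those 5 were Pramel17, Pramel20, Pramel24, Pramel16 and Pramel31. Group means went the other way for a few members, among them Pramel15, at 0.268 TPM in untreated KO and 0.368 TPM in untreated WT, and 0.121 TPM in treated KO and 0.162 TPM in treated WT, with overlapping libraries. The 5 genes on the X chromosome summed to 0.0830 ± 0.0653 TPM in treated KO and 0.193 ± 0.0718 TPM in treated WT.

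Pramel16 (chr4:143674746-143686321, GRCm39) stood at 1.75, 1.23 and 0.818 TPM in untreated KO, against 0.275, 0.469 and 0.275 TPM in untreated WT. Under etoposide its level was 2.39, 1.88 and 2.22 TPM in KO, against 0.223, 0.228 and 0.241 TPM in WT. Every KO library was above every WT library in both conditions, and in limma over all 27304 genes above 0 in any library the differences were 0.74 (adjusted p = 0.00249) and 1.36 (adjusted p = 6.50e-05). Its level in WT would not have reached a filter of 0.5 TPM, so the wider set was used. Pramel16 was named for its mean over all libraries and its highest library, both raised by KO. Its p values between genotypes therefore add no support.

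Pramel31 (chr4:144084534-144090989, GRCm39) stood at 1.07, 1.22 and 2.06 TPM in untreated KO, against 0.433, 0.429 and 0.115 TPM in untreated WT. After treatment it stood at 1.64, 1.80 and 2.06 TPM in KO, against 0.475, 0.350 and 0.226 TPM in WT. It also separated the genotypes, with limma differences of 0.87 (adjusted p = 0.00217) and 1.07 (adjusted p = 7.49e-04) over the same genes. Pramel31 was named on the same ground as Pramel16, so its p values add no support either. Of the 50-base stretches of Pramel16, 63.5% were shared with other genes, and of those of Pramel31, 38.6%.

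Pramel17, the third gene of the small cluster, stood at 0.786, 1.18 and 0.601 TPM in untreated KO, against 0.0354, 0 and 0 TPM in untreated WT. In the etoposide groups it measured 0.637, 0.770 and 0.298 TPM in KO, against 0.0465, 0.0393 and 0 TPM in WT. It was listed at 0 in some WT libraries, so no fold change is given. With no filter on low values, 27 members were tested. In untreated KO 11 of 27 were called higher, against 14.5% of the 27304 genes, and 4 of 27 lower, against 10.9%. In treated KO 10 of 27 were called higher, against 11.3%, and 3 of 27 lower, against 11.1%. Each low member that was called was higher in KO. Most low members were at 0 in some WT library and had little room to be lower in KO, so this 1-sided pattern adds no support.

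**Figure D3:**
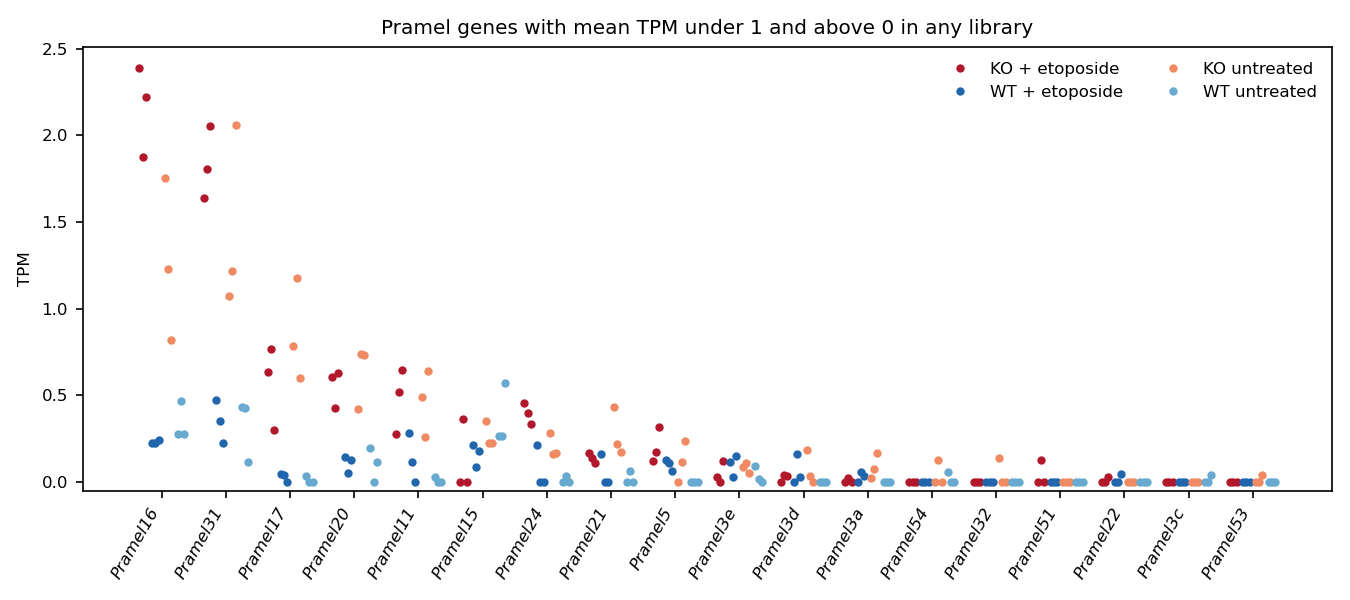
TPM on a linear axis of the 18 Pramel genes under a mean of 1 TPM but above 0 in any library; points are libraries, coloured by group. Pramel16 and Pramel31 reach about 2 TPM in KO libraries and stay under 0.5 TPM in every WT library.

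By position, the chromosome 2 pair and the small chromosome 4 cluster were higher in KO, while the large chromosome 4 cluster held members of both directions. Pramel7 and Pramel6 together stood at 22.1, 18.5 and 19.7 TPM in untreated KO, against 12.1, 10.9 and 12.4 TPM in untreated WT. With etoposide they stood at 17.01, 19.1 and 17.4 TPM in KO, against 8.84, 8.86 and 9.02 TPM in WT. The ratio of means of this chromosome 2 pair was 1.71 without and 2.00 with etoposide.

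The 3 genes of the small chromosome 4 cluster together stood at 9.18, 9.50 and 7.62 TPM in untreated KO, against 0.662, 0.488 and 1.70 TPM in untreated WT. With etoposide they stood at 9.09, 9.55 and 7.69 TPM in KO, against 1.31, 0.474 and 0.490 TPM in WT. The ratio of means was 9.22 without and 11.6 with etoposide. Inside this cluster lay 2 tested genes with clone or model names, whose sum was 7.74 to 8.59 TPM in untreated KO, against 3.0 to 4.45 TPM in untreated WT.

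The 20 genes of the large chromosome 4 cluster together stood at 96.4, 93.9 and 96.5 TPM in untreated KO, against 129, 127 and 126 TPM in untreated WT. With etoposide they stood at 91.7, 94.9 and 99.6 TPM in KO, against 131, 129 and 125 TPM in WT. The sum was lower in KO, with ratios of 0.750 and 0.744, although Pramel16, Pramel31 and other low members of the cluster were higher there. These low members lie between the ones that fell, since Pramel16 lies beside Pramel14 and Pramel31 between Pramel30 and Pramel13.

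**Figure D4:**
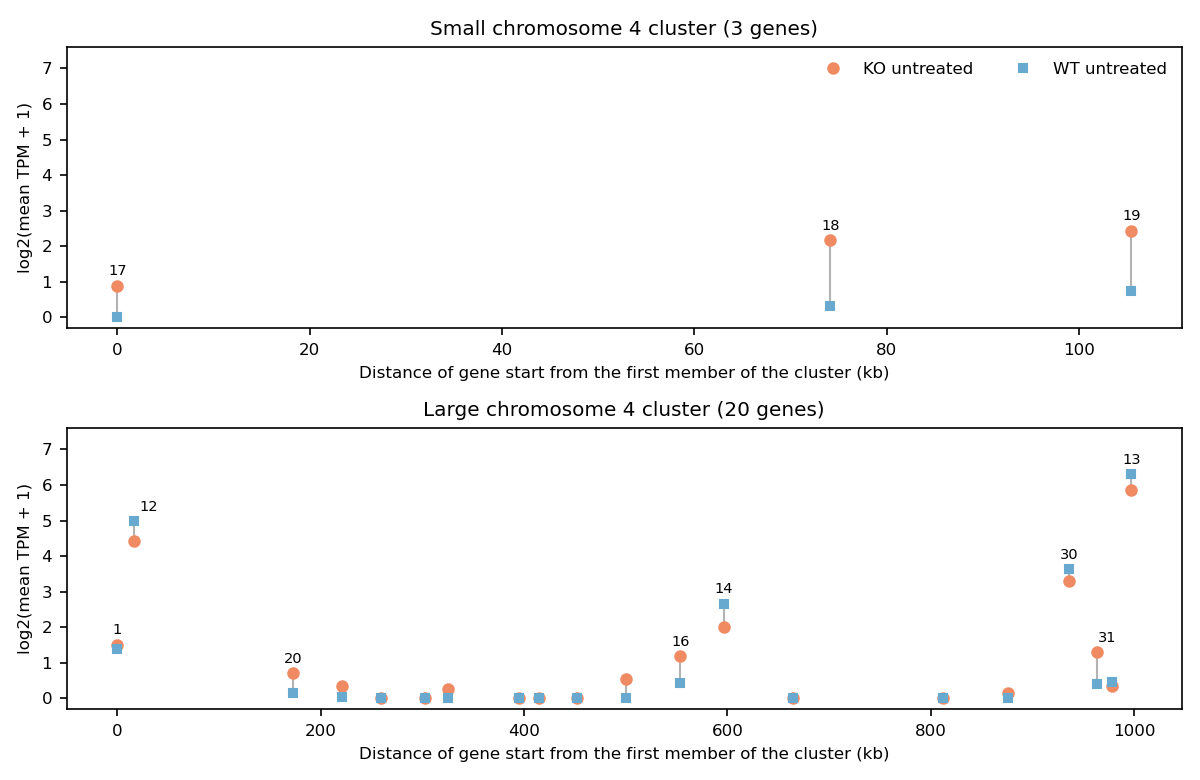
Mean level in untreated cells as log2(mean TPM + 1), by distance of the gene's start from the first member of its cluster, for both chromosome 4 clusters; circles are KO, squares are WT, and numbers are the gene names without Pramel. In the large cluster genes higher in KO (20, 16, 31) and genes lower in KO (12, 14, 30, 13) lie among each other.

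Summed over all 58 members, the family stood lower in KO. The total was 128, 122 and 124 TPM in untreated KO, against 142, 139 and 140.2 TPM in untreated WT. With etoposide it was 118, 124 and 125 TPM in KO, against 141, 139 and 134 TPM in WT. The groups did not overlap, the difference of means was -11.0% in untreated cells (log2 ratio -0.17) and -11.6% with etoposide (log2 ratio -0.18), and no p is given for a sum over chosen genes. The sum hides 2 opposite changes. In untreated cells the 4 members called higher held 15.3 TPM more in KO, the 4 called lower differed by -35.6 TPM from WT, and the 49 members under 1 TPM held 4.61 TPM more. With etoposide the differences of KO from WT were 16.4, -37.4 and 5.15 TPM.

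Without Pramel13 the total stood at 68.1 ± 3.47 TPM in untreated KO and 62.8 ± 0.780 TPM in untreated WT, which turns the log2 ratio to 0.12. With etoposide it was 64.1 ± 2.03 TPM in KO and 56.3 ± 0.933 TPM in WT, a log2 ratio of 0.19 (SD, n = 3). Without this 1 gene the summed family was therefore higher in KO, not lower. The 49 members under 1 TPM summed to 5.88 ± 0.172 TPM in untreated KO and 1.26 ± 0.133 TPM in untreated WT, a ratio of 4.66. With etoposide they summed to 6.60 ± 0.2505 TPM in KO and 1.44 ± 0.486 TPM in WT, a ratio of 4.57.

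**Figure D5:**
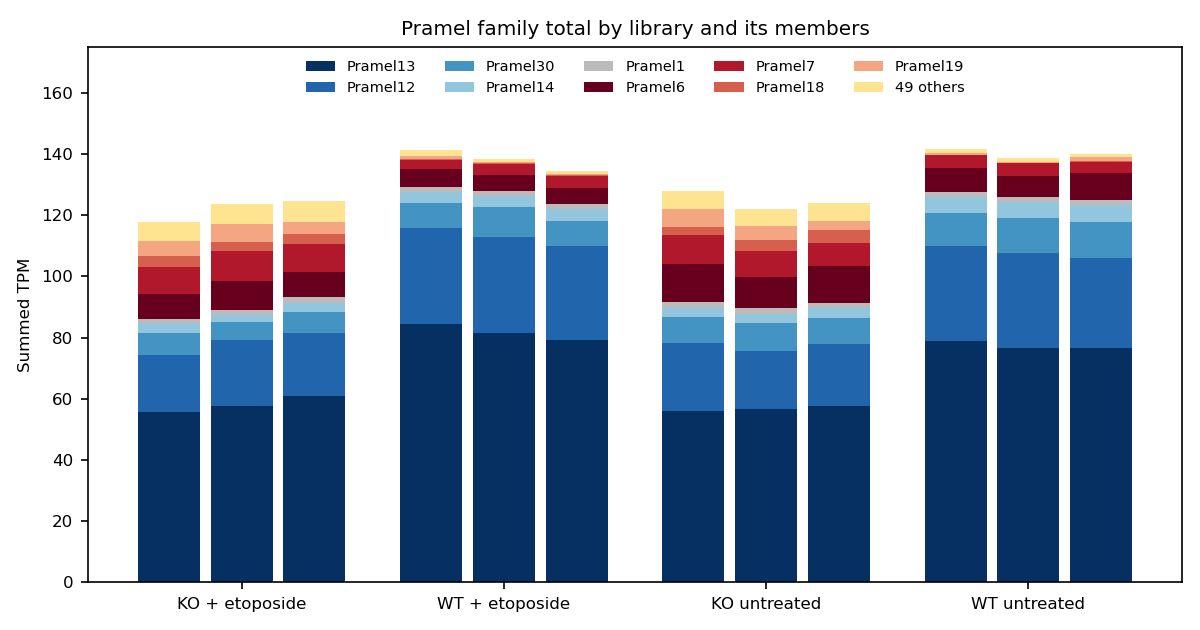
Summed TPM of the Pramel family in each library, stacked by member, with the 49 members under a mean of 1 TPM shown as one part. Totals are 118 to 128 TPM in the KO libraries and 134 to 142 TPM in the WT libraries, and the dark blue part, Pramel13, is thinner in the KO libraries while the red and yellow parts are thicker.

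With etoposide 3 members were called lower in WT cells and 2 in KO cells, and 0 were called higher. In WT, the change was -0.45 ± 0.10 for Pramel6 (adjusted p = 0.00361), -0.45 ± 0.10 for Pramel14 (adjusted p = 0.00451) and -0.36 ± 0.08 for Pramel30 (adjusted p = 0.00493) on the log2 scale. That is 3 of 9 lower, against 13.5% of all genes tested, and 0 of 9 higher, against 20.8%. By the library values above, each treated WT library was below every untreated WT library for these 3 genes. For Pramel13 each treated WT library was above every untreated WT library, though its change did not pass the test (0.08 ± 0.04, adjusted p = 0.125). The share of all genes with such a separation was not counted. Pramel7 stayed at -0.15 ± 0.09 (adjusted p = 0.239), though quantile normalization of the libraries called it lower (-0.32, adjusted p = 0.0147). The share of higher calls among all genes called in this comparison was 60.7%, and it moved to 45.5% with median-of-ratios scaling and 43.9% with quantile normalization.

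In KO cells, Pramel30 (-0.33 ± 0.08, adjusted p = 0.0124) and Pramel6 (-0.37 ± 0.10, adjusted p = 0.0159) fell with etoposide. That is 2 of 9 lower, against 10.5% of all genes tested, and 0 of 9 higher, against 14.5%. Both calls were lost when certain single libraries were left out. Pramel30 lost its call without treated KO replicate 2 (-0.27, adjusted p = 0.0535). Pramel6 lost its call without treated KO replicate 1 (-0.33, adjusted p = 0.0627) or replicate 3 (-0.35, adjusted p = 0.0527), and without untreated KO replicate 1 (-0.31, adjusted p = 0.0647) or replicate 3 (-0.34, adjusted p = 0.0537). Pramel14 stood at -0.10 ± 0.10 (adjusted p = 0.510), while its sum with Pramel30 changed by -0.28 ± 0.07 (adjusted p = 0.0159).

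Pramel13 stood at 0.08 ± 0.04 in WT (adjusted p = 0.125) and 0.03 ± 0.04 in KO (adjusted p = 0.567) after etoposide. Pramel12 stood at 0.03 ± 0.06 in WT (adjusted p = 0.710) and -0.02 ± 0.06 in KO (adjusted p = 0.830). Neither of these abundant genes passed the test. The family total differed by -1.50% in WT and -2.14% in KO, within the spread of its libraries. Pramel18 (-0.04 ± 0.14 in KO) and Pramel19 (0.14 ± 0.24 in KO) did not pass either.

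The etoposide change was not shown to differ between the genotypes for any of the 9 members. In the interaction test of limma, 0 of 9 were called higher and 0 of 9 lower, against 0.0709% and 1.16% of all genes tested, and 1 of 9 had an unadjusted p under 0.05. That gene was Pramel14, with a difference of the changes of 0.35 ± 0.14 (unadjusted p = 0.0333, adjusted p = 0.376). Its sum with Pramel30 gave 0.13 ± 0.11 (adjusted p = 0.707). Pramel7 gave 0.23 ± 0.13 (adjusted p = 0.550).

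Genes of the pathways that Pramel proteins are known to meet moved in both directions. Of 17 tested genes of CUL2 ubiquitin ligases, 1 was higher and 4 lower in untreated KO, where 28.1% of all tested genes were higher and 21.5% lower, with a median of 0.02, against 0.04 over all genes tested. With etoposide 5 were higher and 3 lower, where 22.5% of all tested genes were higher and 21.7% lower, with a median of 0.03, against 0.02. The lower calls of both comparisons are about as frequent as over all genes. Cul2, the scaffold itself, averaged 94.7 ± 3.85 TPM in untreated KO and 105 ± 6.45 TPM in untreated WT, a difference of -0.15 ± 0.05 (adjusted p = 0.0194), which was lost without untreated KO replicate 3 (-0.11, adjusted p = 0.0786) or untreated WT replicate 3 (-0.10, adjusted p = 0.0825). Rbx1, the RING partner of the scaffold, averaged 82.1 ± 2.73 TPM in untreated KO and 104 ± 6.75 TPM in untreated WT (-0.33 ± 0.05, adjusted p = 2.33e-04). Vhl, a substrate receptor that competes for the same scaffold, stood at -0.35 ± 0.05 (adjusted p = 2.31e-04), and Fem1b, another receptor, at 0.13 ± 0.03 (adjusted p = 0.00442).

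Of 12 tested genes of DNA methylation and its removal, 5 were higher and 5 lower in untreated KO, beside the same shares of all genes, with a median of -0.10, against 0.04 over all genes tested. With etoposide 2 were higher and 6 lower, where 22.5% of all tested genes were higher and 21.7% lower, with a median of -0.09, against 0.02. Uhrf1, whose protein Pramel7 is known to lower in mouse stem cells, averaged 479 ± 10.6 TPM in untreated KO and 558 ± 12.5 TPM in untreated WT. Its RNA fell, with differences of -0.22 ± 0.02 (adjusted p = 1.69e-05) in untreated KO and -0.17 ± 0.02 (adjusted p = 1.34e-04) in treated KO, and protein was not measured. Dnmt1, the maintenance enzyme, averaged 207 ± 4.13 TPM in untreated KO and 199 ± 2.38 TPM in untreated WT, with a difference of 0.06 ± 0.02 (adjusted p = 0.0444) that did not pass with FPKM (0.03, adjusted p = 0.394) or median-of-ratios scaling (0.02, adjusted p = 0.450), nor without most single libraries, treated ones included (0.04 to 0.06). Dnmt3a, a de novo enzyme, averaged 8.33 ± 0.338 TPM in untreated KO and 14.4 ± 0.465 TPM in untreated WT (-0.72 ± 0.06, adjusted p = 1.62e-06). Dnmt3b, the other de novo enzyme, stood at -0.31 ± 0.03 (adjusted p = 4.96e-06).

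Of 16 tested genes of LIF to STAT3 signalling, 4 were higher and 2 lower in untreated KO, about as frequent as over all genes (28.1% and 21.5%) or less. Their median was 0.01, against 0.04 over all genes tested. With etoposide 4 were higher and 1 lower, against 22.5% and 21.7% of all tested genes, with a median of 0.03, against 0.02. Stat3, the factor upstream of Pramel7, averaged 82.8 ± 2.32 TPM in untreated KO and 85.1 ± 0.823 TPM in untreated WT (-0.04 ± 0.03, adjusted p = 0.249), a difference that was called with median-of-ratios scaling (-0.07, adjusted p = 0.0460). With etoposide it was called lower in KO (-0.08 ± 0.03, adjusted p = 0.0384), a call that was lost with the compared groups alone (adjusted p = 0.0638) and without any one of 4 libraries, treated KO replicate 1 or 2 or treated WT replicate 2 or 3 (adjusted p = 0.0798 to 0.114). Lif, the cytokine, averaged 7.28 ± 0.349 TPM in untreated KO and 5.05 ± 0.452 TPM in untreated WT (0.45 ± 0.07, adjusted p = 1.44e-04), and Jak1, a kinase of its receptor, stood at 0.25 ± 0.04 (adjusted p = 3.14e-04). Pim1, a kinase gene that STAT3 activates, averaged 80.3 ± 2.86 TPM in untreated KO and 90.4 ± 1.46 TPM in untreated WT (-0.17 ± 0.04, adjusted p = 0.00748). After etoposide 2 of 16 rose and 8 fell in WT, against 20.8% and 13.5% of all tested genes, and 2 rose and 8 fell in KO, against 14.5% and 10.5%.

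In WT after etoposide, CUL2 ligase genes gave 3 higher and 5 lower of 17, and methylation genes 1 higher and 8 lower of 12, beside the same 20.8% and 13.5%. The medians were -0.02 and -0.17, against 0.02 over all genes tested. In KO after etoposide the counts were 2 higher and 1 lower of 17, and 0 higher and 6 lower of 12, beside the same 14.5% and 10.5%, with medians of -0.02 and -0.15, against 0.00176. Of 22 other names used for PRAME-like genes, 5 were in the tables, with Oog1, Oog2, Oog3 and Oog4, the oocyte-expressed relatives, at 0 in all 12 libraries and a summed level of at most 0.0616 TPM. Several of the names not found, such as Pramef8 (Pramel12) and Pramef12 (Pramel13), are older names of members described above. Prame itself was not analysed here.

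Markers of other cells in which Pramel genes are active, or that a stem cell culture could hold, were mostly low. Of 10 oocyte markers 2 were tested, and 1 of 2 was called lower in both comparisons of genotypes, beside 21.5% and 21.7% of all tested genes. Zp3, a gene of the egg coat, was not called. Ooep, an oocyte gene that stem cells also express, averaged 94.8 ± 3.30 TPM in untreated KO and 133 ± 2.43 TPM in untreated WT (-0.48 ± 0.04, adjusted p = 1.62e-06). The summed oocyte list, mostly Ooep, was 107 to 114 TPM in untreated KO, against 149 to 151 TPM in untreated WT, and 96.8 to 102 TPM in treated KO, against 133 to 145 TPM in treated WT. It was lower in KO like Pramel13 and Pramel12, and its part in their fall was not tested.

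Of 7 male germ cell markers 4 were tested, with Ddx4, an RNA helicase of germ cells, higher (0.64 ± 0.12 in untreated cells, adjusted p = 9.49e-04) and Sycp3, of the meiotic chromosome axis, lower (-0.64 ± 0.12, adjusted p = 9.69e-04) in both comparisons of genotypes. Stra8, a meiotic entry gene, was not called, and Prm1 and Acrv1 were at 0 in all 12 libraries. Beside the calls of this list and the feeder and endoderm lists below, 28.1% of all tested genes were higher and 21.5% lower in untreated KO. In treated KO these shares were 22.5% and 21.7%. The list summed to 37.8 to 41.1 TPM in untreated KO, against 41.3 to 44.7 TPM in untreated WT, and 34.7 to 41.7 TPM in treated KO, against 38.2 to 42.0 TPM in treated WT. Of 8 feeder fibroblast markers 3 were tested, with Thy1, a surface protein, lower in both comparisons (-0.40 ± 0.13 in untreated cells, adjusted p = 0.0219) but not without certain single libraries of either comparison (adjusted p = 0.0580 to 0.0904), and with Pdgfrb and Col1a1 not called. The list summed to 9.79 to 11.0 TPM in untreated KO, against 10.9 to 11.9 TPM in untreated WT. Of 6 markers of extraembryonic endoderm 3 were tested, with Dab2, an endocytic adaptor (0.76 ± 0.12, adjusted p = 2.88e-04), and Gata4, a transcription factor (0.46 ± 0.12, adjusted p = 0.00824), higher in untreated KO and Pdgfra not called. Gata4 averaged 0.870 TPM in untreated WT, so the KO libraries helped it past the filter. Among the markers under the filter, Gata6 was higher in untreated KO (0.944 ± 0.0346 TPM, against 0.268 ± 0.1775 in untreated WT). Sox7 went the other way, at 0.214 ± 0.0390 TPM in treated KO and 0.562 ± 0.0283 in treated WT, and at 0.348 ± 0.151 in untreated KO and 0.562 ± 0.108 in untreated WT. In treated KO Dab2 was called (0.41 ± 0.12, adjusted p = 0.0171), but not with the compared groups alone (adjusted p = 0.0530) or without treated KO replicate 3 (0.0653) or treated WT replicate 2 (0.0557) or 3 (0.0706). That list summed to 6.44 to 7.49 TPM in untreated KO, against 3.33 to 4.32 TPM in untreated WT, and 6.90 to 8.03 TPM in treated KO, against 5.10 to 7.16 TPM in treated WT. Its sums were higher in untreated KO, like Pramel7, and overlapped between the treated groups, and its part in the rise of Pramel7 was not tested.

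Of 6 trophectoderm markers 4 were tested, with 1 higher and 2 lower in untreated KO and 2 higher and 2 lower in treated KO. Of all tested genes 28.1% were higher and 21.5% lower in untreated KO, and 22.5% were higher and 21.7% lower in treated KO. Cdx2, the regulator of that lineage, was higher (0.44 ± 0.13 in untreated cells, adjusted p = 0.0127) but not without untreated KO replicate 2 (adjusted p = 0.0581), and Eomes, another of its factors, was lower (-0.34 ± 0.10, adjusted p = 0.0126) but not without untreated WT replicate 2 (adjusted p = 0.0546). The list summed to 46.1 to 46.7 TPM in untreated KO, against 60.7 to 65.0 TPM in untreated WT, and most of it was Tfap2c, a factor that stem cells also express (-0.54 ± 0.04, adjusted p = 5.26e-07). Of the 9 pluripotency markers 0 were higher and 3 lower in untreated KO, with a median of -0.02, against 0.04 over all genes tested. In treated KO 4 were higher and 3 lower, with a median of 0.02, against 0.02. These counts stand beside the same shares of all tested genes as the trophectoderm counts. Dppa5a, an RNA-binding protein gene of stem cells, differed by -0.22 ± 0.03 in untreated KO (adjusted p = 1.33e-04). Pou5f1, the factor also called Oct4, averaged 1400.4 ± 45.6 TPM in untreated KO and 1511 ± 23.1 TPM in untreated WT (-0.11 ± 0.02, adjusted p = 0.00257). Dppa3, which keeps UHRF1 from chromatin in mouse oocytes, averaged 26.3 ± 1.34 TPM in untreated KO and 33.4 ± 1.89 TPM in untreated WT (-0.33 ± 0.08, adjusted p = 0.00458).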

How the data were processed

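RNA abundance per gene was measured in 12 libraries, 3 in each of 4 groups set by the labels' genotype and treatment. Per the labels, poly(A) RNA was depleted of ribosomal RNA and made into strand-specific libraries. Per the submitters' processing notes, the tools were Trim Galore 0.6.6, cutadapt 3.4, HISAT2 2.2.1 and StringTie 2.2.1, with the build GRCm39. Per the file headers, the tables hold TPM, which the authors deposited scaled by length and to a fixed total in each library. They also hold deposited FPKM, scaled by length and mapped fragments. The deposited coverage, a mean read depth over the gene, is not scaled, and with FPKM it gave the aligned bases per library. Division of reads among near-identical genes was the authors' and is not described in the sources used here.

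The members, gene lists and tests were chosen with earlier results of these data known. Genes with a mean of at least 1 TPM were kept, and limma 3.58.1 (R 4.3.3) was fitted on log2(TPM + 1) with 4 group means and a trended variance. P values were adjusted by Benjamini-Hochberg over all 14107 genes within each comparison. Named were all members of at least 1 TPM, the 2 members on either side of that threshold, the 3 lower members with the highest single library, and from each list up to 3 genes with the lowest adjusted p between untreated genotypes, with Cul2, Uhrf1, Dnmt1 and Stat3. The code was tested on simulated data. Replicate numbers were not used as pairs, since same-numbered libraries deviated together only weakly, at r = -0.037 to 0.045.

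Shared 50-base stretches were counted between GENCODE M21 transcripts (GRCm38), where 32 members were matched by current or older symbol, 1 of them, Pramel18, by its position in RefSeq. Promoter windows were aligned globally with Biopython 1.88. Other tools were Python 3.11.15, numpy 2.4.6, pandas 2.3.3 and matplotlib 3.10.9. The alternatives were a pseudocount of 0.1, filters at 0, 0.5 and 2 TPM, FPKM, 2 other scalings, a replicate block, a fit of the compared groups only, robust variance estimation, omission of each library in turn and, chosen after seeing the data, the summed pairs.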

Additional observations from a re-analysis of the deposited data

Results flagged for a closer look

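The values of Pramel16 with etoposide lay on opposite sides in the genotypes, though the WT change did not pass the test. It stood at 2.39, 1.88 and 2.22 TPM in treated KO, against 1.75, 1.23 and 0.818 TPM in untreated KO, and at 0.223, 0.228 and 0.241 TPM in treated WT, against 0.275, 0.469 and 0.275 TPM in untreated WT. Every treated KO library was above every untreated KO library, and every treated WT library below every untreated WT library. Pramel16 was flagged because of this separation, so the separation itself adds no support. The share of all genes with such a separation was not counted. Over all genes above 0 in any library the KO change was 0.50 (limma, adjusted p = 0.0391) and the WT change -0.12 (adjusted p = 0.666). The difference between the changes was 0.6171, and it did not pass the test (adjusted p = 0.340). The WT values are near the low end of what these libraries show, with read depth of 0.463 to 0.583 in treated WT and 0.635 to 1.13 in untreated WT.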

How the results depend on the processing

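Of 976 values of the 9 members under the alternatives, 964 kept their direction and side of the threshold or changed sign with no call on either side (28), 10 lost a call, 2 gained one and 0 reversed with a call. The calls that moved are given beside the genes, apart from Pramel14 between treated genotypes, which also missed the threshold with no filter (adjusted p = 0.0637) and with the compared groups alone (adjusted p = 0.0694). With no filter on low values the members called numbered 15 of 27 between untreated genotypes and 13 of 27 between treated genotypes, in place of 8 of 9 each, while 6935 and 6135 of all 27304 genes were called. Leaving out 1 library gave 8 calls between untreated genotypes, 7 to 8 between treated ones, 3 for etoposide in WT, 1 to 2 for etoposide in KO and 0 in the interaction.

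The log2 ratio of the family total between untreated genotypes (-0.17) was -0.1972 with FPKM, -0.2026 with median-of-ratios scaling, -0.2247 over the members of at least 1 TPM and 0.1173 without Pramel13. Between treated genotypes (-0.18) it was -0.2425 over the members of at least 1 TPM and 0.1861 without Pramel13. For etoposide it was -0.0698 in WT with median-of-ratios scaling, and without Pramel13 it was -0.1565 in WT and -0.0877 in KO. Leaving out 1 library gave -0.1874 to -0.1535 between untreated genotypes, -0.1965 to -0.1527 between treated ones, -0.0389 to -0.0028 for etoposide in WT and -0.0469 to -0.0063 in KO. With the replicate block 8, 8, 3, 2 and 0 members were called in the 5 comparisons, as without it. In 6 of 12 checks, replicate 3 of each pair of groups among them, a library correlated best with its own number in the other group. Same-numbered libraries reached at most r = 0.045. A gap of 200 kb gave 8 clusters in place of 7. Of the 2 clone or model genes in the small chromosome 4 cluster, both were called higher in KO, but only 1 under several settings, the replicate block among them. Of all tested genes 28.1% were called higher in untreated KO and 22.5% in treated KO. Gm52666, 1 of the 2, averaged 0.678 TPM in treated WT, so the KO libraries helped it past the filter.

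Low members rest on read depths near or under 1, where a single library can decide a value.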
